A study of Mus musculus with 31 samples.

Results

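Exon peaks are the regions of open chromatin whose deposited annotation places them in an exon, measured by ATAC-seq in regulatory T cells (Tregs) sorted from mouse spleen. They were taken as every peak of the count table with the class exon in its name, after removal of 15 peaks that each held over 0.2% of all counts. None of the 15 was an exon peak, so 3127 exon peaks were described among 104964 peaks. The other classes held 29413 promoter, 33520 intron, 6683 3' end and 32221 intergenic peaks.

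The 31 libraries came from RFP-FoxP3 reporter mice of strain C57BL/6 that had received 20 µg of the mIL-2/CD25 fusion protein (FP), 5 µg of mIL-2 (IL2) or 100 µL of PBS. There were 3 libraries each of FP, IL2 and PBS at 0.75 h and at 16 h, 3 each of FP and PBS at 72 h, and 4 of FP against 3 of PBS at 168 h. All mice carried the reporter, and the doses of FP and IL2 differed. The labels name spleen Tregs, 50000 nuclei per reaction cut with the transposase Tn5, and 2 technical replicates per biological sample, which the table does not hold apart. The protocol text names 0.75 h throughout, and the 3 later times were read from the sample titles, which mention 2 runs at 168 h. At 16 h columns were matched to groups but not to single samples (libraries c1 to c3). Each time has its own date in the sample identifiers, so time and date cannot be told apart. Nothing in the labels ties the libraries of a group to separate animals. All p-values therefore measure the spread between these samples, which may be technical.

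ATAC-seq cuts DNA where nucleosomes are absent or loose, so a peak marks a stretch that regulatory proteins can reach. Exons hold such stretches because coding sequence, untranslated sequence and the exons of noncoding transcripts can also serve as enhancers, insulators or alternative promoters. In Tregs, IL-2 binds a receptor that contains CD25 and activates the transcription factor STAT5, which binds a palindromic DNA word in promoters and in distal elements.

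The first set of sequences shows a STAT word, TTCNNNGAA, in 9 exon peaks whose accessibility rose in a comparison given further on, 1 word per gene and the one nearest to the centre of its peak. They were chosen after the values of the peaks had been seen. Each line gives 29 bases of the plus strand of GRCm38, 5′ to 3′, read from the RefSeq assembly GRCm38.p6; the word is in capitals and the coordinates are those of the word.
Enpp1 chr10:24673047-24673055: tgcccacagtTTCTCAGAActttaaaatc
Memo1 chr17:74258714-74258722: aaagtaaaagTTCTTAGAAgtgtcttcat
Igfbp7 chr5:77351818-77351826: gcagggctgcTTCGAAGAAatgggaggag
Nek9 chr12:85311756-85311764: ttacacagatTTCTCTGAAtcggtataaa
Nbn chr4:15963631-15963639: gctgagcgacTTCCCCGAAggccacctaa
Supt3 chr17:44923500-44923508: caccaaaggtTTCTTAGAAttcacttgac
Dpp4 chr2:62332099-62332107: tgaatagtctTTCTCAGAAaactgtgcca
Nampt chr12:32852037-32852045: ctagcctgtgTTCTAAGAAaaggagcatg
Etv1 chr12:38822053-38822061: atactttgtaTTCCTAGAAattattattc

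The words in Enpp1, Supt3, Dpp4, Nampt and Etv1 lay inside an annotated exon. Those in Memo1, Igfbp7, Nek9 and Nbn lay inside an annotated gene but outside its exons, under a peak that reaches into an exon. A match to these letters is a description of the window and not a measured binding site.

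The second set shows what an open coding exon looks like. It holds the peaks in coding sequence, with no untranslated base in the window, that either rose with treatment (Cmya5 and Myo6) or were among the 10 exon peaks of highest level per kb (Zfp51 and Marcks). The central 300 bases of the peak are printed, or the whole peak where it was narrower, and annotated coding bases are in capitals.
Cmya5 chr13:93096279-93096578: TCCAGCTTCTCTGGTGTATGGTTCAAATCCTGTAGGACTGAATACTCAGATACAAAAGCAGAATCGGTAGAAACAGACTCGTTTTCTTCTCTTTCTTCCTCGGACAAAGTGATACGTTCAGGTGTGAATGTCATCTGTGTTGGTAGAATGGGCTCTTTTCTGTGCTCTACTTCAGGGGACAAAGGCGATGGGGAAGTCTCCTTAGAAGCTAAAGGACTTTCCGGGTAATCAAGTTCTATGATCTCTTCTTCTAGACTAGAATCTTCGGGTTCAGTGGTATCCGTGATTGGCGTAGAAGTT
Myo6 chr9:80299096-80299395: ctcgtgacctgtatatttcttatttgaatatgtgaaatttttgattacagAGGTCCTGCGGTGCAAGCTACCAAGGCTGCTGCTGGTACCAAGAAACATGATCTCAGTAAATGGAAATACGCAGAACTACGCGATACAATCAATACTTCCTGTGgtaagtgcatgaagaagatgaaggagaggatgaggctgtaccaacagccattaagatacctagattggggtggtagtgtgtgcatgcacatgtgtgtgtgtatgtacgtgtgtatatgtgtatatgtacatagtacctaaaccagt
Zfp51 chr17:21463470-21463769: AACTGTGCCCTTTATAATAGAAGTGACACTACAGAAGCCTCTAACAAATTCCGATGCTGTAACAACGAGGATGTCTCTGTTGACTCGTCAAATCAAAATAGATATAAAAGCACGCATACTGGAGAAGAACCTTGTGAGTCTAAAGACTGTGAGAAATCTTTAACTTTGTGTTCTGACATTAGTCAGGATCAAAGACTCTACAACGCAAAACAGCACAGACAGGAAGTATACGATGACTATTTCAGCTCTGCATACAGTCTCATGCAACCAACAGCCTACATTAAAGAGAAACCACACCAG
Marcks chr10:37136793-37136923: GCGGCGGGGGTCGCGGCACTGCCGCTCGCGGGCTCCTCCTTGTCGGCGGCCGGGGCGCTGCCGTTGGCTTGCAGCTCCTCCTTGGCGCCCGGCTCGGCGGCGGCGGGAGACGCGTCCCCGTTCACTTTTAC

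In the Myo6 window, which spans an exon boundary on each side, 104 of the 300 bases were coding and GC made up 41.7%. The Cmya5 and Zfp51 windows were coding throughout, with a GC content of 44.0% and 40.0%. The 131 bases of the Marcks peak had a GC content of 76.3% and held 21 CG dinucleotides, against 6 in the Zfp51 window. No copy of TTCNNNGAA stood within 300 bases centred on the Cmya5 and Myo6 peaks. The whole Myo6 peak had 0 copies, and the Cmya5 peak had 1 at 180 bp from its centre.

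The label of the class was checked against the GENCODE M21 annotation. Of the 3127 exon peaks, 3115 (99.6%) overlapped an annotated exon, and 98.8% overlapped an exon of a gene in their own annotation. The overlap was often partial: the median peak was 45.1% exonic (quartiles 18.8% and 100%), and 1093 peaks (35.0%) were wholly exonic. By the position of the centre, 1361 peaks (43.5%) were centred in an intron, 758 (24.2%) in coding sequence, 613 (19.6%) in an exon of a noncoding transcript, 335 (10.7%) in a 3' untranslated region, 52 (1.66%) in a 5' untranslated region and 8 outside genes. An intron-centred peak had its centre a median of 96 bp from the nearest exon (quartiles 43 and 172 bp). The class holds peaks over coding and noncoding exons as well as peaks in introns that run into an exon.

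**Figure D1:**
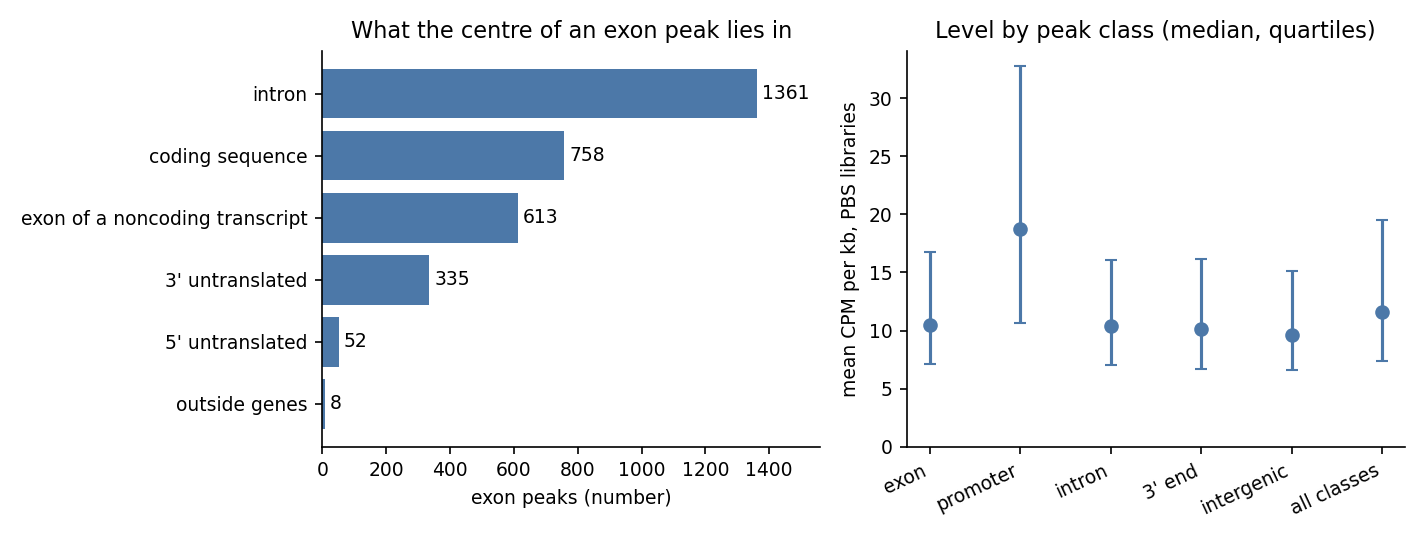
Left, the number of exon peaks by the feature that holds their centre, with 1361 in introns and 758 in coding sequence. Right, the median and quartiles of the mean normalised CPM (counts per 1000000) per kb over the PBS libraries by peak class, with exon peaks at a median of 10.5, promoter peaks at 18.7 and all classes at 11.6.

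Exon peaks were spread over many genes. They carried 1887 gene names, of which 1460 had a single exon peak and 104 had 5 or more. Morc1, which encodes a germline chromatin regulator, had 17. Peaks were 74 to 1524 bp wide, with a median of 381 bp. Overlap between peaks was common: 1077 (34.4%) overlapped another peak of any class, and the exon peaks fell into 2260 merged regions, so counts of peaks run above counts of regions.

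Few exon peaks lay near a transcription start. An annotated transcription start lay within 1000 bp of 254 (8.12%), against 97.7% of promoter peaks and 2.97% of intron peaks, and the median distance to a start was 5847 bp. Among the 1758 peaks centred in an exon, 160 lay in the first exon of a transcript, 607 in a last exon, 703 in internal exons only and 312 in a single-exon transcript, where a peak can count under more than 1 of these. The longest exon at the centre had a median length of 2258 bp, and it was longer than 1000 bp for 1092 peaks (62.1%).

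The median GC content of exon peaks was 49.9%, against 58.5% in promoter peaks and 46.7% in intron peaks. Coding-centred peaks had the highest GC content among the kinds with over 100 peaks, 54.4%, and 3' untranslated ones the lowest, 47.9%. The STAT word, searched on both strands in the central 300 bp, stood in 11.3% of exon peaks and in 10.6% of all peaks, with 7.05% in promoter peaks and 12.3% in intron peaks. Within the class it stood in 18.5% of 3' untranslated, 10.2% of coding-centred and 10.8% of intron-centred peaks. The AP-1 word TGANTCA stood in 10.1% of exon peaks and 10.1% of all peaks, the RUNX word TGTGGT in 26.9% and 23.9%, the ETS word CGGAAG in 10.4% and 11.5%, and a match to the CTCF motif in 7.16% and 5.84%. The ETS word stood in 16.4% of coding-centred exon peaks, against 22.9% of promoter peaks. None of these shares was tested, since peaks are not replicates.

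Exon peaks had a median level of 10.5 normalised CPM (counts per 1000000 counts of a library) per kb over the PBS libraries (quartiles 7.10 and 16.7), against 18.7 in promoter, 10.4 in intron, 10.1 in 3' end and 9.65 in intergenic peaks. By kind, the median level per kb was 10.4 for coding-centred, 13.4 for 5' untranslated, 10.5 for 3' untranslated, 12.0 for noncoding and 10.2 for intron-centred peaks, and 6.77 for the 8 peaks outside genes. The spread between libraries of a group, as the biological coefficient of variation, had a median of 39.6% in exon peaks, 30.2% in promoter peaks and 42.0% in intron peaks. It followed abundance: at a log2 CPM of 1 to 2 the median was 43.7% in 887 exon peaks and 43.6% in all peaks, and above 3 it was 25.2% and 24.5%.

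The 10 exon peaks of highest level per kb were those of Rap2b, a small GTPase (138 CPM per kb), Vmn2r95, a vomeronasal receptor (108), Zfand1 (93.6), Trio, a guanine nucleotide exchange factor (89.4), Marcks, a substrate of protein kinase C at the membrane (86.5), Ppfibp2 (81.7), Enpp1 (80.6, a 3' untranslated peak), Poli (79.3), ccdc198 (71.7) and Zfp51, a zinc finger protein (64.9). Rap2b also had the narrowest spread, a coefficient of variation of 13.9%. Its 3 libraries at 0.75 h read 217, 205 and 210 CPM with FP, 239, 213 and 211 CPM with IL2, and 208, 217 and 232 CPM with PBS, so the groups overlapped. Clec11a (15.2%), Aqr (15.5%), Sctr (15.6%) and Lpin1 (15.8%) came next.

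The widest spread among exon peaks with a mean log2 CPM of at least 1 belonged to Lmx1a (112%), Itga8 (91.2%), Lgi2 (84.9%), Tcp10c (82.8%) and Ror1 (76.8%). These rested on a few libraries. For the coding-centred peak of Tcp10c, the libraries at 168 h read 2.18, 13.0, 0.635 and 1.56 CPM with FP and 39.7, 13.4 and 1.64 CPM with PBS, and those at 72 h read 4.93, 1.31 and 0.861 CPM with FP and 2.42, 22.9 and 0.518 CPM with PBS. The high libraries were FP replicate 2 and PBS replicates 1 and 2 at 168 h and PBS replicate 2 at 72 h. FP replicate 2 at 168 h, with 6.73 M counts, and PBS replicate 1, with 4.01 M, had the smallest totals of all libraries. The part of depth in these values was not tested.

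Library totals ran from 4.01 to 44.5 M counts (M stands for 1000000). FP replicate 2 and PBS replicate 1 at 168 h stood apart, with a mean correlation of log2 CPM with the other libraries of 0.773 and 0.730, against 0.807 to 0.882 for the rest. Between 4 and 133 exon peaks had no count in a library. Treg markers fixed for the check (Foxp3, Il2ra, Ctla4, Ikzf2, Tnfrsf18, Cd4, Cd3e and Cd3g) all had peaks. Among markers of other cells, Ms4a1 of B cells, Ncr1 of NK cells, Csf1r of myeloid cells, and Hbb-bs and Alas2 of erythroid cells had no peak. The others had peaks: Cd79a, Pax5 and Ebf1 of B cells (1, 3 and 7 peaks), Cd8a and Cd8b1 of CD8 T cells (1 and 16), Klrb1c and Eomes of NK cells (13 and 2), Lyz2, Itgam, Spi1 and Cebpa of myeloid cells (1, 1, 10 and 10), and Gata1, Klf1 and Hbb-bt of erythroid cells (10, 1 and 17). The highest peak of Klrb1c, an intergenic one, stood at 50.2 CPM per kb in PBS libraries, and that of Eomes at 8.13. Next among the markers of other cells was Ebf1, at 23.1. The highest peaks of the Treg markers ran from 12.5 (Cd3e) to 54.4 (Ctla4), with Foxp3 at 27.2. In bulk samples, fewer cells of a type and less signal per cell cannot be told apart.

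The share of each library's counts that fell in exon peaks overlapped between treated and PBS libraries at every time. It averaged 2.05% ± 0.0208 in FP, 2.07% ± 0.0742 in IL2 and 2.00% ± 0.0760 in PBS libraries at 0.75 h (SD, n = 3 each), and 1.97% ± 0.0237, 1.94% ± 0.0836 and 1.97% ± 0.0328 for the same groups at 16 h. At 72 h it was 1.99% ± 0.0600 in FP and 1.98% ± 0.0668 in PBS libraries (SD, n = 3 each), and at 168 h 1.98% ± 0.0512 in FP (n = 4) and 2.03% ± 0.0485 in PBS libraries (n = 3). Single libraries ran from 1.84% to 2.15%. The share depends on the removal of the 15 peaks: with them kept it ran from 0.973% to 1.43%.

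**Figure D2:**
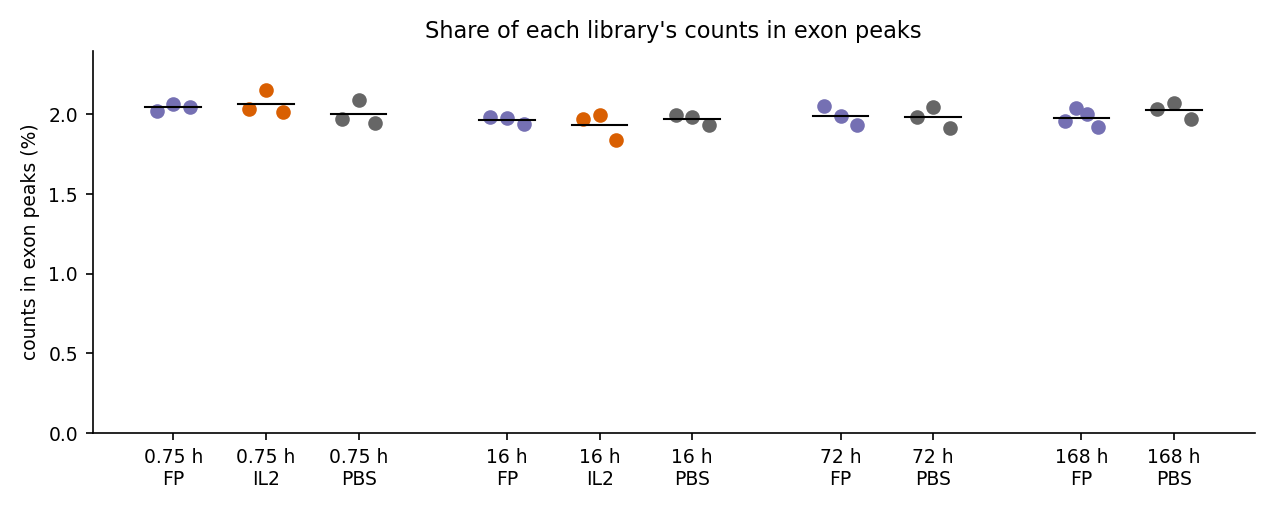
Percent of each library's counts that fell in exon peaks, with 1 point per library, grouped by time and treatment, and a line at each group mean. Every library lies between 1.84% and 2.15%.

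The median fold change of exon peaks was close to that of all peaks in every comparison. Against PBS, the median log2 fold change of tested exon peaks was 0.01 with FP and -0.03 with IL2 at 0.75 h, where all tested peaks had medians of -0.00 and -0.04. It was -0.04 with FP and 0.00 with IL2 at 16 h (all peaks -0.01 and 0.01), -0.02 with FP at 72 h (all peaks -0.03) and -0.03 with FP at 168 h (all peaks -0.03). The same-time comparisons of FP and IL2 share their PBS libraries.

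A small number of exon peaks rose with IL2 at 0.75 h, among the 3019 of 3127 that passed the filter on low counts. By edgeR's quasi-likelihood test with Benjamini-Hochberg adjustment over all tested peaks, 14 of 3019 tested exon peaks (0.464%) rose at an adjusted p under 0.05 and 0 fell, in 11 regions. Of all 100143 tested peaks, 0.47% rose and 0.00899% fell, so the exon share lay near that of the table as a whole. In each of the 14, the 3 IL2 libraries all lay above the 3 PBS libraries. Such a separation upward was seen in 224 exon peaks (7.42%) and in 6.55% of all peaks. By class, 0.798% of intron, 0.625% of 3' end, 0.391% of intergenic and 0.159% of promoter peaks rose.

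Memo1, which encodes a mediator of cell motility downstream of receptor tyrosine kinases, had an intron-centred exon peak at chr17:74258338-74258943 with the smallest adjusted p. At 0.75 h it read 16.4, 12.7 and 19.6 CPM in the FP libraries, 28.7, 27.8 and 21.5 CPM in the IL2 libraries and 3.32, 7.72 and 3.77 CPM in the PBS libraries. The 3 groups did not overlap, with FP between IL2 and PBS, and the log2 fold change of IL2 against PBS was 2.37 ± 0.33 (SE; edgeR adjusted p = 0.00259).

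Enpp1 encodes an ectoenzyme that hydrolyses extracellular ATP and cGAMP. Its peak at chr10:24672644-24673480, centred in an exon of a noncoding transcript 1196 bp from an annotated start, read 41.1, 33.8 and 30.5 CPM with FP, 55.5, 54.9 and 66.5 CPM with IL2, and 14.4, 21.6 and 21.7 CPM with PBS. FP again lay between the other two, and the log2 fold change of IL2 against PBS was 1.59 ± 0.23 (edgeR adjusted p = 0.00286). A 3' end peak of the same gene rose as well, by 1.72 ± 0.24 on the log2 scale (edgeR adjusted p = 0.00259).

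The largest fold change was that of Nek9, a kinase of mitotic spindle assembly, at an intron-centred peak on chr12:85311437-85311958 with very low counts. The IL2 libraries read 3.45, 3.58 and 3.64 CPM, and the PBS libraries 0.136, 0 and 0 CPM, which is 153 counts in all against 2. The ratio of the rates was 68.9, with a 95% interval of 18.7 to 574 that covers counting error only. The fitted log2 fold change of 5.90 ± 0.94 (edgeR adjusted p = 0.00538) rests on a group that is almost at 0.

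Of the other risen peaks, 3 overlapping ones lay in coding sequence of Cmya5, which encodes a large muscle protein (also annotated to A630019I02Rik). The one at chr13:93096225-93096632 read 50.1, 36.7 and 40.6 CPM with IL2, against 11.1, 17.1 and 11.1 CPM with PBS, a log2 fold change of 1.66 ± 0.26 (edgeR adjusted p = 0.00404). The coding-centred peak of Myo6, a myosin that moves towards the minus end of actin filaments, read 72.6, 64.7 and 74.6 CPM with IL2, against 37.9, 43.5 and 28.7 CPM with PBS. Its change was the smallest of the 14, at 0.92 ± 0.20 (edgeR adjusted p = 0.0455). The windows printed above for both genes lie inside these peaks.

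Igfbp7, which encodes a secreted binder of insulin-like growth factors, had 2 risen peaks that lay side by side without overlap. They were at chr5:77351480-77351989 and chr5:77352024-77352387, with log2 fold changes of 2.50 ± 0.39 and 1.91 ± 0.34 (edgeR adjusted p = 0.00498 and 0.0120). The first read 16.6 to 26.4 CPM in the IL2 libraries, against 2.70 to 4.75 CPM in the PBS libraries. Nbn, a part of the complex that senses DNA double-strand breaks, rose by 2.32 ± 0.38 and the peak shared by Cenpp, a centromere protein, and Aspn by 1.77 ± 0.27 (edgeR adjusted p = 0.00651 and 0.00394). A pair of overlapping peaks of Supt3, a subunit of the SAGA coactivator, changed by 2.27 ± 0.47 and 2.23 ± 0.46 (edgeR adjusted p = 0.0336 and 0.0335). The first of them read 19.5, 21.1 and 18.3 CPM with IL2, against 1.09, 3.14 and 7.78 CPM with PBS, and the PBS libraries differed most among themselves. The 3' untranslated peak of Dpp4, the surface peptidase CD26, read 82.3, 57.4 and 73.6 CPM with IL2, against 34.7, 29.8 and 31.6 CPM with PBS, a change of 1.12 ± 0.20 (edgeR adjusted p = 0.0118).

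By position, 6 of the 14 risen peaks were centred in introns, 4 in coding sequence, 3 in exons of noncoding transcripts and 1 in a 3' untranslated region. The STAT word stood in the central 300 bp of 9. Among tested exon peaks that hold the word there, 9 of 350 (2.57%) rose and the median log2 fold change was 0.22. Among those without it there, 5 of 2669 (0.187%) rose and the median was -0.05. Over all peaks the shares were 3.11% with the word and 0.156% without it. The 9 include the overlapping Supt3 pair and both Igfbp7 peaks. The 5 are the 3 overlapping Cmya5 peaks, which share 1 word outside that window, and the peaks of Myo6 and of Cenpp and Aspn, with 0 copies each.

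The 14 calls are sensitive to single libraries: 8 peaks passed without IL2 replicate 3, 9 without IL2 replicate 1, 8 without PBS replicate 1, and 25 without FP replicate 3, which entered the fit for the estimate of the spread. At an unadjusted p under 0.05 there were 193 exon peaks by edgeR (6.39%, against 5.77% of all peaks). DESeq2 called 57 exon peaks higher and 3 lower, and 1020 and 96 of all 100143 peaks. The summed CPM over peaks of the Treg marker genes ran from 753 to 785 in the IL2 libraries, against 629 to 725 in the PBS libraries. The sums of the other marker lists overlapped between these groups. The part of the marker sums in these results was not tested.

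**Figure D3:**
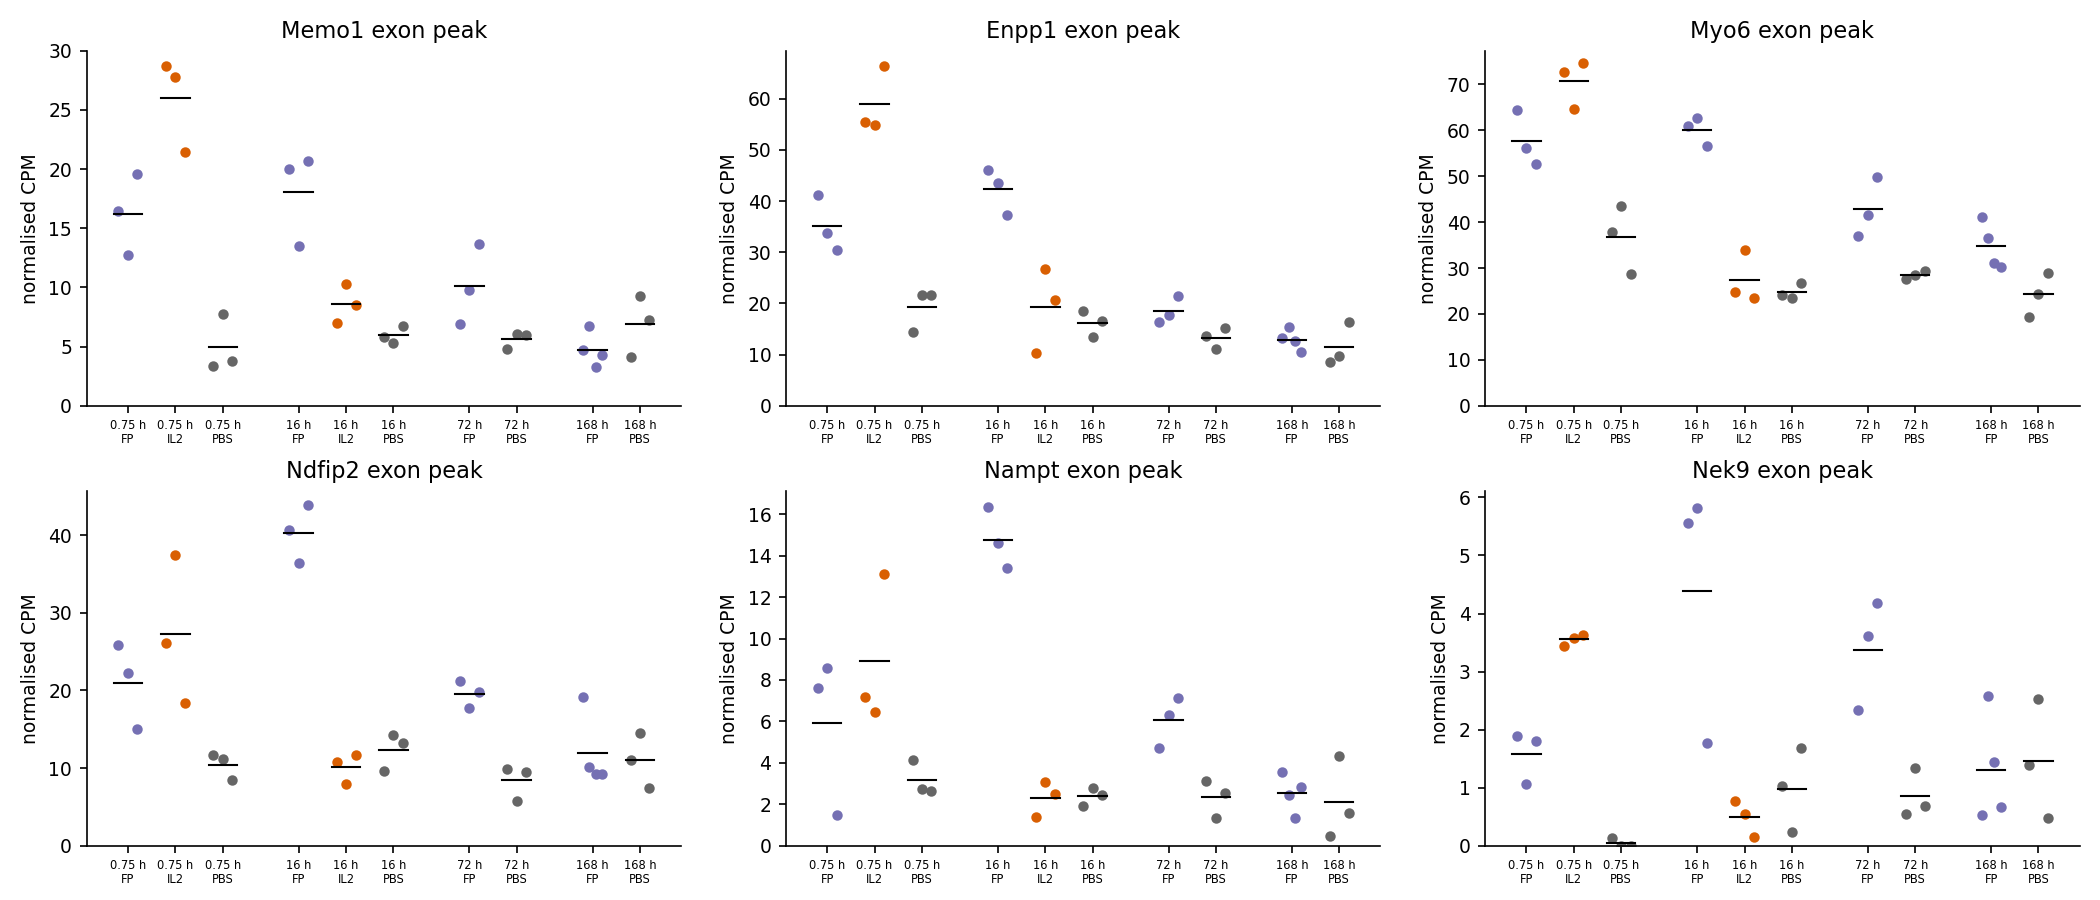
Normalised CPM of 6 exon peaks in each library, by time and treatment, with 1 point per library and a line at each group mean. The Memo1 peak reads 21.5 to 28.7 in the IL2 libraries at 0.75 h, against 3.32 to 7.72 in the PBS libraries, and the Ndfip2 peak reads 36.5 to 43.8 in the FP libraries at 16 h, against 9.66 to 14.2 in the PBS libraries.

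FP gave no exon peak past the threshold at 0.75 h. By edgeR 0 of 3019 exon peaks passed (0.002% of all peaks did), and 117 had an unadjusted p under 0.05 (3.88%, against 3.11% of all peaks). DESeq2 called 7 exon peaks higher, and 216 of all 100143 peaks. The smallest p-values belonged to the peaks of Cenpp and Aspn (log2 fold change 1.50, edgeR adjusted p = 0.113), Memo1 (1.71, 0.161) and Nek9 (4.75, 0.177), all of which had risen with IL2. Over the 14 peaks that rose with IL2, FP libraries had a median log2 fold change of 1.13 against the same PBS libraries, which also entered the choice of the 14, with a range of 0.64 to 4.75. The direct difference was not called: in FP against IL2 at 0.75 h edgeR called 0 exon peaks (0% of all peaks), 145 had an unadjusted p under 0.05, and DESeq2 called 0. The summed CPM of erythroid marker genes was 169 to 258 in FP and 125 to 155 in PBS libraries at 0.75 h. The sums of the other marker lists overlapped between these groups. The part of the marker sums was not tested.

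A small number of exon peaks rose with FP at 16 h. By edgeR 9 of 3045 exon peaks (0.296%) rose with FP, in 8 regions, and 0 fell, where 0.119% of all peaks rose and 0.000997% fell. All FP libraries lay above all PBS libraries in each of the 9. That pattern held for 204 exon peaks (6.70%) and for 7.04% of all peaks. The share that rose was 0.172% in intron, 0.140% in 3' end, 0.114% in intergenic and 0.0412% in promoter peaks, and no test compared the classes.

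Ndfip2 encodes an adaptor that activates ubiquitin ligases of the NEDD4 family. Its intron-centred peak at chr14:105287651-105288853 read 40.7, 36.5 and 43.8 CPM in the FP libraries, against 9.66, 14.2 and 13.3 CPM in the PBS libraries. The lowest FP library was over any PBS library by a wide margin, and the log2 fold change was 1.70 ± 0.26 (edgeR adjusted p = 0.00321).

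Nampt encodes the rate-limiting enzyme of NAD salvage. Its 3' untranslated peak at chr12:32851759-32852276 read 16.3, 14.6 and 13.4 CPM with FP, 1.40, 3.09 and 2.47 CPM with IL2, and 1.92, 2.77 and 2.43 CPM with PBS. IL2 and PBS libraries overlapped below the FP libraries, and the log2 fold change of FP against PBS of 2.64 ± 0.40 was the largest of the 9 (edgeR adjusted p = 0.00328). Etv1, an ETS family transcription factor, had a peak in an exon of a noncoding transcript that read 24.9, 33.1 and 27.2 CPM with FP, against 9.46, 11.8 and 5.37 CPM with PBS (1.68 ± 0.33, edgeR adjusted p = 0.0319).

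The remaining 6 were peaks that had also risen with IL2 at 0.75 h: Memo1, Enpp1, Myo6, Dpp4 and 2 of the overlapping Cmya5 peaks. They are 66.7% of the 9 and 42.9% of the 14, and the PBS libraries of the 2 comparisons differ. Memo1 read 20.0, 13.5 and 20.7 CPM with FP, against 5.83, 5.31 and 6.71 CPM with PBS (1.59 ± 0.32, edgeR adjusted p = 0.0343). Enpp1 read 46.1, 43.6 and 37.2 CPM with FP, against 18.4, 13.4 and 16.6 CPM with PBS (1.38 ± 0.28, edgeR adjusted p = 0.0398). Groups did not overlap in either peak. Myo6 read 60.9, 62.6 and 56.6 CPM with FP, against 24.1, 23.6 and 26.8 CPM with PBS (1.27 ± 0.21, edgeR adjusted p = 0.00575), and Dpp4 59.3, 62.1 and 50.9 CPM, against 29.3, 20.4 and 20.4 CPM (1.29 ± 0.23, edgeR adjusted p = 0.0138).

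Of the 9 peaks, 3 were centred in coding sequence, 2 in a 3' untranslated region, 2 in an exon of a noncoding transcript and 2 in an intron. The STAT word stood in the central window of 5. With the word in that window, 5 of 348 tested exon peaks rose (1.44%) and the median log2 fold change was 0.26. Without it there, 4 of 2697 rose (0.148%) and the median was -0.06. Of these 4, the Ndfip2 peak held 2 copies further from its centre, the Cmya5 peaks 1 each and the Myo6 peak 0. Copies outside the window were not counted in peaks that were not called. The shares over all peaks were 0.828% and 0.0346%.

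The count depends on each of the 6 libraries: it was 2, 2 and 4 exon peaks without FP library c1, c2 or c3, and 1, 4 and 3 without PBS library c1, c2 or c3. Without PBS c1, Ndfip2 and Nampt had an edgeR adjusted p of 0.0511. At an unadjusted p under 0.05 there were 185 exon peaks by edgeR (6.08%, against 5.37% of all peaks). DESeq2 called 17 exon peaks higher and 0 lower, and 440 and 50 of all 100292 peaks. Myeloid marker genes summed to 187 to 230 CPM in FP libraries, 98.2 to 244 in IL2 libraries and 85.5 to 153 in PBS libraries at 16 h. The sums of the other marker lists overlapped between FP and PBS libraries. The part of the marker sums in these results was not tested.

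**Figure D4:**
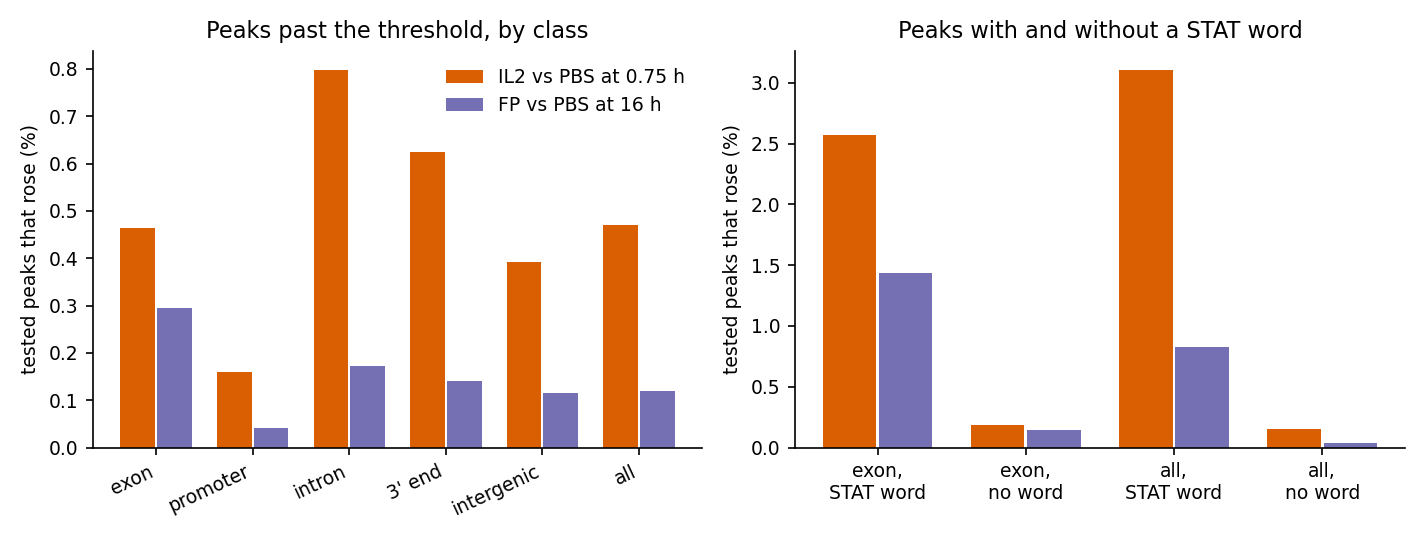
Percent of tested peaks that rose at an edgeR adjusted p under 0.05, for IL2 against PBS at 0.75 h and FP against PBS at 16 h. Left, by class, with exon peaks at 0.464% and 0.296% beside all peaks at 0.47% and 0.119%; right, with and without the STAT word in the central 300 bp, with exon peaks at 2.57% and 0.187% for IL2.

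IL2 left no exon peak past the threshold at 16 h. By edgeR 0 of 3045 exon peaks passed (0% of all peaks), and DESeq2 called 0. At an unadjusted p under 0.05 there were 111 by edgeR (3.65%, against 3.74% of all peaks). The 14 peaks that had risen with IL2 at 0.75 h had a median log2 fold change of 0.20 with IL2 at 16 h, with a range of -1.05 to 0.63. Small p-values belonged to Gm31108 (log2 fold change 1.25 ± 0.34) and Adss, an enzyme of purine synthesis (4.39 ± 1.22, with PBS libraries at 0.137, 0 and 0 CPM), each with an edgeR adjusted p of 1.00.

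A direct comparison of FP with IL2 at 16 h separated 7 exon peaks, all higher with FP (0.13% of all peaks were higher). Ndfip2 read 40.7, 36.5 and 43.8 CPM with FP, against 10.7, 7.94 and 11.6 CPM with IL2 (log2 difference 1.99 ± 0.26, edgeR adjusted p = 0.00136). Nampt differed by 2.65 ± 0.39 (edgeR adjusted p = 0.00247), Etv1 by 1.76 ± 0.33 (0.0203), Myo6 by 1.12 ± 0.20 (0.0179), Dpp4 by 1.16 ± 0.23 (0.0325) and Dnah7a, an axonemal dynein, by 2.04 ± 0.39 (0.0233). The peaks named here are 6 of the 7. The FP and IL2 libraries did not overlap in Ndfip2, Nampt or Dpp4, and for the others this is not given here. All FP libraries lay above all IL2 libraries in 191 of 3045 exon peaks and in 5739 of all 100292 peaks.

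Without FP library c1, c2 or c3, 2, 2 and 3 of these exon peaks passed; without IL2 library c1, c2 or c3, 2, 4 and 3 did. Ndfip2 and Nampt passed in all 16 fits tried. At an unadjusted p under 0.05 there were 174 by edgeR (5.71%, against 5.03% of all peaks). DESeq2 called 18 exon peaks higher and 1 lower, and 464 and 32 of all 100292 peaks. The summed CPM of NK cell marker genes was 196 to 245 in FP and 143 to 195 in IL2 libraries at 16 h, without overlap. The sums of the other marker lists overlapped between these groups. The part of the marker sums in these results was not tested. FP and IL2 were given at unequal doses.

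FP left no exon peak past the threshold at 72 h or at 168 h. At 72 h edgeR called 0 of 3064 (0% of all peaks), and 149 had an unadjusted p under 0.05 (4.86%, against 5.22% of all peaks). DESeq2 called 5 exon peaks higher and 1 lower, and 72 and 70 of all 100329 peaks. The smallest p-values were those of Senp8, a protease of the NEDD8 pathway (1.97 ± 0.39), Itga2, the integrin alpha 2 chain (0.68 ± 0.13), and Ube2f, a NEDD8-conjugating enzyme (1.69 ± 0.34), each with an edgeR adjusted p of 0.929. Itga2 read 80.1, 69.4 and 69.9 CPM with FP, against 43.3, 45.2 and 47.2 CPM with PBS. Its groups lay apart, but the peak did not pass the adjustment over 100329 peaks.

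At 168 h edgeR called 0 of 3075 (0% of all peaks), and 134 had an unadjusted p under 0.05 (4.36%, against 4.51% of all peaks). DESeq2 called 0 exon peaks, and 20 higher and 1 lower of all 102817 peaks. The smallest p-values belonged to Aff1, a scaffold of the super elongation complex (-2.04 ± 0.43), Mthfs, a folate enzyme (-2.83 ± 0.66), and Trim71, an RNA-binding ubiquitin ligase (1.89 ± 0.46), each with an edgeR adjusted p of 0.905. Aff1 read 1.35, 0.858, 1.31 and 1.05 CPM with FP, against 3.23, 5.06 and 5.68 CPM with PBS. Leaving out FP 2 and PBS 1, which stood apart, also gave 0 exon peaks. At an unadjusted p under 0.05 there were then 292 of 3066 exon peaks and 10154 of all 101484 peaks.

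Followed over all comparisons with PBS, the 14 peaks that rose with IL2 at 0.75 h had median log2 fold changes with FP of 1.13 at 0.75 h, 1.37 at 16 h, 0.41 at 72 h and -0.06 at 168 h. The 9 peaks called for FP at 16 h had medians with FP of 0.89 at 0.75 h, 1.59 at 16 h, 0.45 at 72 h and 0.09 at 168 h, and with IL2 of 1.46 at 0.75 h and 0.15 at 16 h. The values at the time that chose the peaks are high by that choice. Ndfip2 had 1.00 ± 0.30, 1.70 ± 0.26, 1.20 ± 0.25 and 0.09 ± 0.35 with FP at the 4 times, and only the 16 h value passed.

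**Figure D5:**
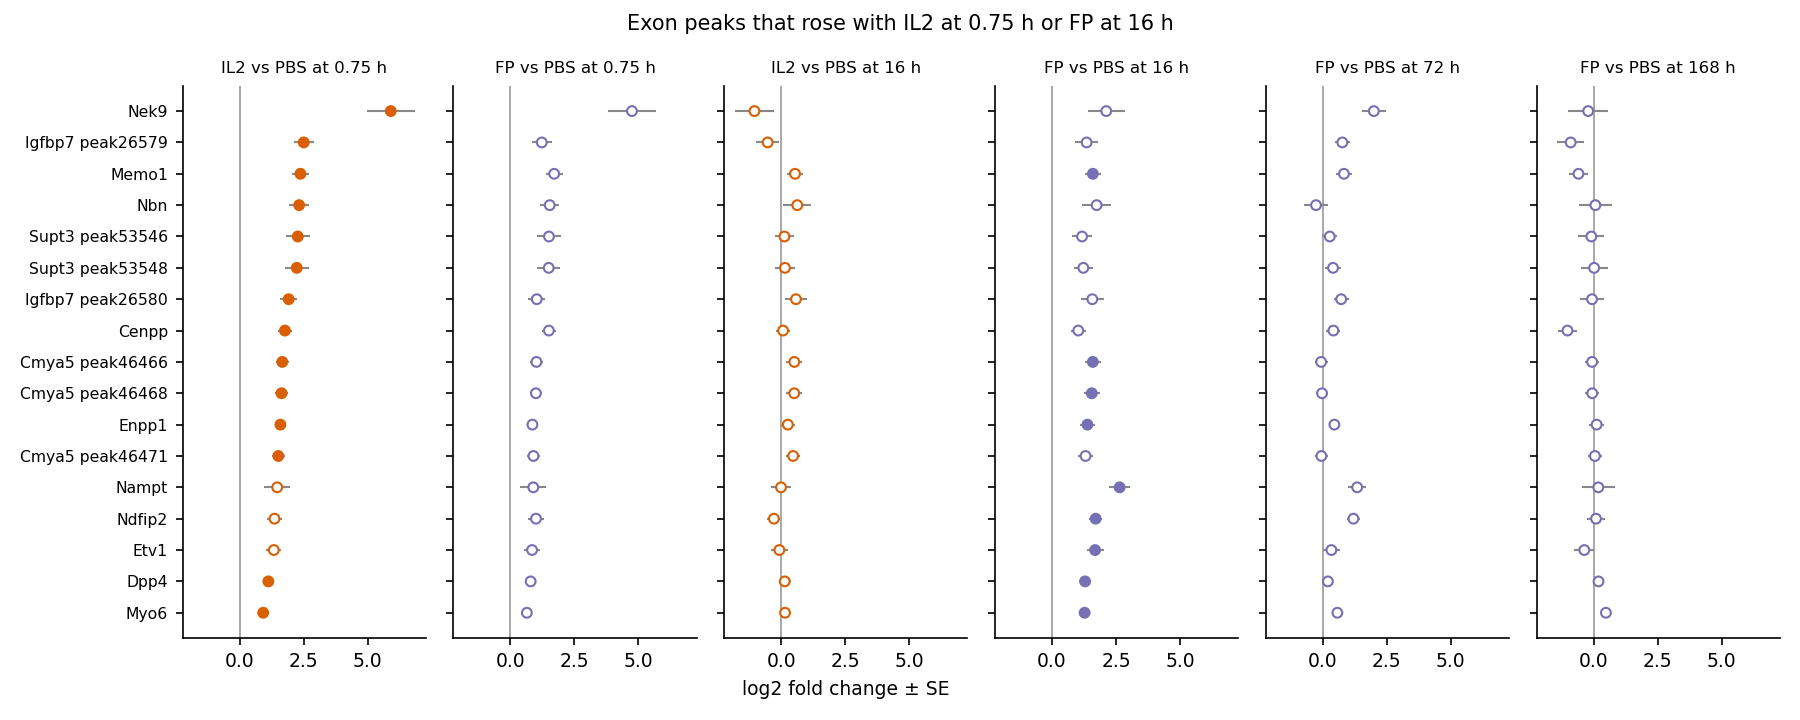
Log2 fold change against same-time PBS with its standard error for the 17 exon peaks that rose with IL2 at 0.75 h or FP at 16 h, 1 panel per comparison. Filled points passed an edgeR adjusted p of 0.05: 14 for IL2 at 0.75 h, 9 for FP at 16 h and none in the other 4 panels.

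Whether an effect differed between times was tested in 1 fit of all 31 libraries, each effect against its own PBS group. For IL2, 1 of 3118 exon peaks had a smaller effect at 16 h than at 0.75 h (0.0431% of all peaks did). It was the Nek9 peak, with a difference of -7.00 ± 1.25 on the log2 scale (edgeR adjusted p = 0.0171), and it rests on the PBS libraries at 0.75 h that had 0 counts. The count was 0 without PBS replicate 2 or PBS replicate 3 of 0.75 h or without IL2 library c3 of 16 h. Without PBS library c3 of 16 h 1 peak passed, but Nek9 did not. DESeq2 called 10 exon peaks lower and 1 higher, and 256 and 16 of all 104463 peaks. For FP, edgeR called 0 exon peaks between 16 h and 0.75 h (0% of all peaks), 0 between 72 h and 16 h (0.000957% of all peaks) and 0 between 168 h and 72 h (0% of all peaks). At an unadjusted p under 0.05 there were 128, 119 and 62 exon peaks in that order. These were 4.11%, 3.82% and 1.99%, against 3.52%, 3.07% and 1.52% of all peaks. DESeq2 was not run on the FP differences.

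The 17 risen exon peaks were set beside the other peaks of their genes. Of 57 promoter peaks of those genes, 0 passed in either comparison by edgeR, and neither did the 49 intron peaks. The 37 other exon peaks hold 0 calls by construction, since every exon peak called in these comparisons is among the 17. Over the whole table, 0.159% of promoter and 0.798% of intron peaks rose with IL2 at 0.75 h. With FP at 16 h the shares were 0.0412% and 0.172%, so 0 calls among so few promoter and intron peaks lay near them. One of 22 3' end peaks (Enpp1) and 1 of 14 intergenic peaks (Nampt, 2.47 ± 0.43, edgeR adjusted p = 0.0103) rose with IL2 at 0.75 h. Over the whole table, 0.625% of 3' end and 0.391% of intergenic peaks did. For the promoter peak of Memo1 with the highest level, the log2 fold change was -0.14 ± 0.40 with IL2 at 0.75 h and 0.14 ± 0.21 with FP at 16 h. For that of Enpp1 it was -0.19 ± 0.26 and 0.11 ± 0.20, and for that of Ndfip2 -0.20 ± 0.32 and 0.19 ± 0.17. The promoter peak of Nbn came closest, with 0.62 ± 0.14 for FP at 16 h (edgeR adjusted p = 0.0782).

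Exon peaks were also looked up for listed genes of the IL-2 and Treg programmes and for marker genes. Of 172 genes in lists on Treg identity, the response to IL-2 through STAT5, resting and effector states, T cell receptor, NF-kB, cell cycle, metabolism, AP-1 and marker genes, 29 had an exon peak, 59 peaks in all. By edgeR 0 of the 59 passed in any comparison with PBS, and 5, 2, 1, 1, 0 and 1 had an unadjusted p under 0.05 for IL2 at 0.75 h, FP at 0.75 h, IL2 at 16 h, FP at 16 h, FP at 72 h and FP at 168 h. Over all peaks the shares under 0.05 were 5.77%, 3.11%, 3.74%, 5.37%, 5.22% and 4.51% in that order. At most 0.479% of all peaks passed in a comparison, so 0 of 59 lay near the share of the table. DESeq2 called 1 for IL2 at 0.75 h, the same 1 for FP at 16 h, and 0 in the other 4. That peak belongs to Ptpn1, a tyrosine phosphatase of JAK signalling, in an exon of a noncoding transcript.

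The Ptpn1 peak had log2 fold changes of 1.84 ± 0.43 with IL2 at 0.75 h (edgeR adjusted p = 0.0729) and 1.80 ± 0.47 with FP at 16 h (edgeR adjusted p = 0.214). The other listed IL-2 response genes with an exon peak, Stat5b, Jak1 and Bcl2, gave -0.06 ± 0.46, -0.42 ± 0.33 and -0.78 ± 0.24 with IL2 at 0.75 h. Among Treg identity genes, the exon peaks of highest level were at 0.35 ± 0.29 for Ikzf2 and -0.74 ± 0.26 for Ikzf4, both Ikaros family factors, and 0.28 ± 0.18 for Nt5e, the ectonucleotidase CD73. Among effector Treg genes, Icos gave 0.05 ± 0.30, Irf4 0.20 ± 0.42 and Il10 -0.14 ± 0.76. None of these passed. The median over the 59 peaks was 0.13 with IL2 at 0.75 h and 0.09 with FP at 16 h, against -0.04 and -0.01 over all peaks. It was highest, 0.24 against 0.01, with IL2 at 16 h, where edgeR called no peak of the table. With FP it was 0.006 at 0.75 h, 0.09 at 72 h and 0.07 at 168 h, against -0.004, -0.03 and -0.03 over all peaks.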

How the data were processed

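Chromatin accessibility was measured by ATAC-seq in 31 libraries of sorted spleen Tregs. The deposited table holds whole-number read counts per peak, one column per library, not normalised by the authors. Gene names with commas shift the deposited fields, so the first count column was read from the right-hand end. Reads were aligned with BWA to GRCm38 (mm10) and peaks called with MACS2 2.1.2, per the submitters' processing notes. Per the labels' design text, an IDR filter on pseudo-replicates chose reproducible peaks, and the authors tested differences with DESeq2. Neither the read counter nor any duplicate filter is stated: not given in the sources used here. There were 0 unmapped per-sample columns.

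Peaks with over 0.2% of all counts were dropped. Libraries of each time point were fitted together with edgeR 4.0.16 (TMM scaling, default filterByExpr, quasi-likelihood F test) in R 4.3.3 with limma 3.58.1. Benjamini-Hochberg adjustment covered every peak tested, and 0.05 was the threshold. Differences between times came from 1 fit of all libraries. DESeq2 1.42.0, other scalings, no filter, a replicate block, fewer libraries and a depth covariate were alternatives. The scripts were tested on simulated data. Tables and figures used Python 3.11.15, numpy 2.4.6, pandas 2.3.3 and matplotlib 3.10.9. CPM are counts per 1000000 after that scaling, and intervals on counts cover counting error only. Positions came from GENCODE M21.

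The peaks named were, per comparison with PBS, up to 8 per direction by fold change with groups that did not overlap and 1 peak per gene, or the 3 smallest p-values where fewer than 3 passed. Added to these were the 10 highest per kb, the 5 widest and 5 narrowest spreads, and the most abundant exon peak of each listed gene. Dnah7a in FP against IL2, the STAT words shown, the depth covariate and the fits without shallow libraries were chosen after seeing the data. Some named peaks and markers are not reported here. The members and lists were chosen with earlier results of these data known.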

Additional observations from a re-analysis of the deposited data

Results flagged for a closer look

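In the FP group at 168 h, the only group of 4 libraries, 7 of 39 values had 1 library far from the others by Dixon's ratio at its 95% critical value. Chance gives about 5% for independent values that were not chosen by their spread. The 39 values share the same 4 libraries and include the peaks of widest spread (Lgi2, Tcp10c and Ror1 among them). The count therefore cannot be set against that 5%. FP replicate 2 was the highest for the median exon peak level (10.9 CPM per kb) and for the peaks of Lgi2 (17.0 CPM), Tcp10c (13.0 CPM) and Ror1 (7.30 CPM), and the lowest for Poli (35.9 CPM). FP replicate 1 was the highest for Ndfip2 (19.2 CPM) and Marcks (14.5 CPM).

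The IL2 effect on the Nek9 peak differed between times, by -7.00 on the log2 scale for 16 h minus 0.75 h.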

How the results depend on the processing

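No called peak or count of calls reversed direction in any alternative. For IL2 against PBS at 0.75 h, 14 exon peaks passed, against 60 by DESeq2, 51 with a replicate block, 27 with all libraries in one fit and 9 with library total as a covariate, and 8 to 25 with 1 library left out. Its median was -0.0083 with high-count peaks kept and -0.0077 with the covariate, and ran from -0.0744 to 0.0161 with 1 library left out. For FP at 0.75 h, 0 passed, against 7 by DESeq2 and 4 with the replicate block. For FP at 16 h, 9 passed, against 17 by DESeq2, 4 with library totals as the scaling and 1 to 10 with 1 library left out, and the median was -0.1003 with library totals and 0.0039 with the covariate, and ran from -0.044 to -0.009 with 1 library left out. Library totals also gave a median of -0.087 for IL2 at 16 h, where all peaks had -0.083. For FP at 72 h, 0 passed, against 6 by DESeq2 and 8 with the covariate. For FP against IL2 at 16 h, 7 passed, against 19 by DESeq2, 3 with the covariate and 2 to 7 with 1 library left out. For the IL2 effect at 16 h minus 0.75 h, 1 passed, against 2 with library totals, 11 by DESeq2 and 0 to 1 with 1 library left out. The mean share of counts in exon peaks was 1.21% with high-count peaks kept. The cause of these differences was not tested. Deviations of same-numbered libraries correlated at 0.0104 to 0.224 at 0.75 h (mean 0.11, against -0.055 and a range of -0.215 to 0.056 for different numbers), -0.20 to 0.57 at 72 h and -0.23 to 0.41 at 168 h. At 0.75 h every same-number pair but FP 1 with PBS 1 was the best match between its groups, a hint of pairing from the data and not from the design. Not every pair reached 0.1 at any of these times, so the numbers were not taken to pair samples, and the block gave 0 calls at 72 h and 168 h. At 16 h no block was fitted, because the column numbers do not match those of the sample titles and so identify no sample. Of single-peak values, 596 kept their direction and side of the threshold, 120 no longer passed and 10 newly passed. Low counts limit the precision of Nek9.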
